A study of Drosophila melanogaster with 3 samples.

Results

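The E(spl)mβ peaks described here are those of the pooled peak list that are not on the list of reproducible peaks. A row of the pooled list was a member when no row of the reproducible list had the same chromosome, start, end and summit, and when it lay on the chromosome arms X, 2L, 2R, 3L, 3R or 4. Of the 30000 pooled peaks, 21451 were members, and the other 8549 were the reproducible peaks, here called IDR peaks. There were thus 2.51 members for each IDR peak.

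The study mapped the DNA bound by E(spl)mβ in whole Drosophila melanogaster embryos 0 to 24 h old, males and females mixed, by chromatin immunoprecipitation and sequencing (ChIP-seq) of fragments of 200 to 800 bp. All 3 biological replicates form 1 group: embryos of a stable transgenic line in which the GFP tag is fused to E(spl)mβ at the C terminus, precipitated with an antibody against GFP. The line is the only genotype and the whole embryo the only tissue, so the lists do not tell which cells carry a peak, and a peak needs to lie in only some of the cells or ages to be seen. Each replicate has a list of 30000 peaks, called on the dm6 genome against the same control alignment as the pooled list. The files give no read totals, so the depth behind each peak is unknown, and the intervals below reflect counting error alone.

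The tagged factor belongs to the bHLH-Orange proteins (bHLH, basic helix-loop-helix) and is a relative of the vertebrate Hes repressors, encoded in the Enhancer of split complex. The bHLH genes of the complex are switched on by Notch signalling and repress proneural and other target genes through the corepressor Groucho. A lenient peak call is meant to reach down into background, and the irreproducible discovery rate (IDR) then keeps the ranks at which replicates give the same order. The members are what lies below that line in the pooled data.

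The members with the strongest signals that hold letters known from these factors show what such sequence looks like. GGCACGTG contains CACGTG, the palindromic E box to which Hes-type proteins bind in vitro, and CACGCG is a related site. GAGAGAG is bound by GAGA factor and TATCGATA is the core of the DNA replication-related element, a motif of housekeeping promoters. For GGCACGTG 4 sequences are shown and for each of the other motifs 2, all from the plus strand of the Release 6 (dm6) assembly, 40 bp to each side of the summit, which is the position of strongest signal in a peak. Each line names the gene with the nearest transcription start site (TSS) and where the summit lies, and capitals mark the motif on either strand.
dsb, intron, chr3L:1895567-1895647: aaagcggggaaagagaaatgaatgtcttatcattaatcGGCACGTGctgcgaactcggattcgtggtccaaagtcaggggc
Pde11, intron, chr2L:18559178-18559258: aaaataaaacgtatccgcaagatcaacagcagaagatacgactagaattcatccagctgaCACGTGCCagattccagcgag
bun, intron, chr2L:12466833-12466913: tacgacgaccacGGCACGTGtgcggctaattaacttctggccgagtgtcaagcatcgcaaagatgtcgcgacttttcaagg
cpo, intron, chr3R:17968774-17968854: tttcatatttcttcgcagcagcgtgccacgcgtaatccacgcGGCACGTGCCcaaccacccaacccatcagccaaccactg
CG31668, between genes, chr2L:2203317-2203397: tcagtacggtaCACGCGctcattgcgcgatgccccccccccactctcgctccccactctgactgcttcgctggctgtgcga
CG3581, coding sequence of Ino80, chr3R:19371121-19371201: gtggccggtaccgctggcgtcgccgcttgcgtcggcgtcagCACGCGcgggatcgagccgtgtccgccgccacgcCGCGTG
simj, intron, chr3L:10674336-10674416: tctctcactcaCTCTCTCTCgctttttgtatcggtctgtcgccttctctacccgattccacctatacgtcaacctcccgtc
CG14441, intron, chrX:6700543-6700623: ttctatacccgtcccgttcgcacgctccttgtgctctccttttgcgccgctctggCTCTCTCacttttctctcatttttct
CaBP1, promoter, chr2L:16356867-16356947: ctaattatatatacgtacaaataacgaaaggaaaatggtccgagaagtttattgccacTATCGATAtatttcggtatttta
ND-B14.5A, promoter, chrX:2172442-2172522: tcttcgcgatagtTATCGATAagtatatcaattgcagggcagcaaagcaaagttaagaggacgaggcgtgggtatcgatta
The 4 GGCACGTG members shown were all intronic, between 2048 bp (dsb) and 24708 bp (cpo) from a TSS. These locations follow in part from how the windows were chosen, since leaving out untranslated regions also leaves out promoter windows that touch them. The dsb member was in replicates 2 and 3, with signals of 45.5 and 90.2, and not in replicate 1. The other 3 were in every replicate, Pde11 for example with 136.0, 74.3 and 68.8. The cpo window holds the motif as the longer palindrome GGCACGTGCC, which gives a match on both strands.

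Signal is the authors' score of enrichment over the control for each peak, and it is used here only to rank and describe peaks within a list. The members were in effect chosen by their signal, below a line set by the IDR selection, which read the replicates. The IDR peaks were exactly the 8549 strongest, so the values of signal are a description and carry no test. The weakest member had a signal of 58.5 and the strongest of 286.4, the median was 114.7 and the quartiles were 80.9 and 170.9. The line between the lists passed through peaks of nearly equal signal. The weakest IDR peaks had the nearest TSS at Mapmodulin (286.6), CG3168 (286.5), slbo (286.5), CG42674 (286.5) and PGRP-LB (286.5). The strongest members had it at CG9920 (286.4), bdg (286.3), Nup107 (286.1), cv-c (286.1) and verm (286.1). Across this line 34.3% of the weakest 1000 IDR peaks and 31.6% of the strongest 1000 members lay at promoters. The first lay in all 3 replicate lists in 90.1% of cases and the second in 88.2%. For the weakest 1000 members the same shares were 14.1% at promoters and 11.4% in all 3 lists.

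The deposited −log10 q-value, a measure of significance against the control that rises with confidence, was at its ceiling throughout the IDR list. All 8549 IDR peaks stood at the top value of the pooled list, 4.29, and so did 1291 members (6.02%). A value of 2 or more was reached by 6932 members (32.3%) and a value of 1 or more by 12839 (59.9%), and the lowest was 0.403.

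Peak widths differed as well. A width of exactly 470 bp was given to 20531 members (95.7%) and to 2325 IDR peaks (27.2%). Merged where they overlapped, the members made 17664 regions that covered 9098699 bp, or 6.80% of the 133880608 bp of the arms, against 3055240 bp (2.28%) for the IDR peaks.

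A member was counted as present in a replicate when its summit lay inside an interval of that replicate's list. Replicate 1 held 17100 members (79.7%), replicate 2 held 16145 (75.3%) and replicate 3 held 15280 (71.2%). The intervals of these lists cover 8.37%, 8.83% and 8.53% of the arms. All 3 lists held 10242 members (47.7%, 95% binomial interval 47.1 to 48.4), exactly 2 held 7129 (33.2%), 1 held 3541 (16.5%) and none held 539 (2.51%). Of the IDR peaks, 92.7% were in all 3. The members' share depends on how far down the replicate lists are read: in the strongest 15000 rows of each it was 13.3%, and 89.7% for IDR peaks. The IDR selection itself read the replicates, so this difference follows in part from the rule and is not tested.

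Presence fell along the signal. From the strongest quintile of members to the weakest, the share in all 3 lists was 85.0%, 70.7%, 46.8%, 23.9% and 12.3%. Members found in only 2 lists were most often in replicates 1 and 2 (3076), followed by 1 and 3 (2039) and by 2 and 3 (2014). Those found in a single list came from replicate 1 in 1743 cases, replicate 3 in 985 and replicate 2 in 813. When a replicate summit had to lie within 100 bp of the member summit, 5881 members (27.4%) were present in all 3 lists and 1422 in none. Of the IDR peaks, 87.4% were in all 3 by this measure.

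**Figure D1:**
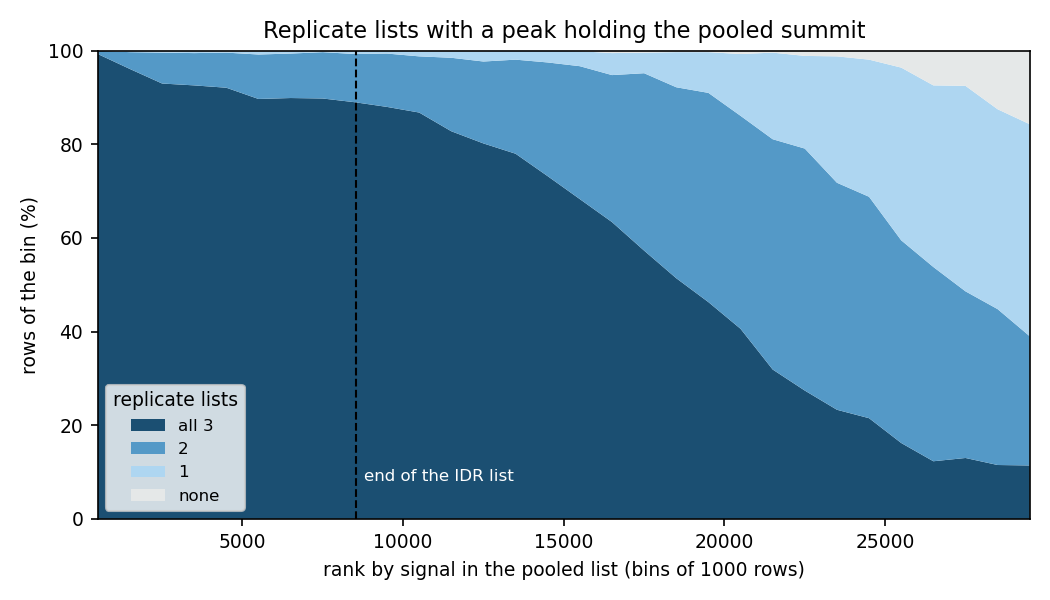
Share of pooled peaks (percent, vertical axis) whose summit lies inside a peak of all 3, of 2, of 1 or of no replicate list, as stacked areas over bins of 1000 peaks ordered by pooled signal from the strongest (horizontal axis, rank); the dashed line marks the end of the IDR list. The area for all 3 lists shows no step at that line and comes down to 11.4% in the weakest bin.

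In the replicate lists the members sat in the middle. Their median rank among the 30000 peaks was 16089 in replicate 1, 15881 in replicate 2 and 15813.5 in replicate 3, where IDR peaks had median ranks of 4084.5, 4243.5 and 4198.5. Across members present in both of a pair of lists, Spearman's rank correlation of the replicate signals was 0.447 between replicates 1 and 2 (13318 members), 0.383 between 1 and 3 (12281) and 0.465 between 2 and 3 (12256). For IDR peaks the same values were 0.821, 0.760 and 0.832. These are descriptions over peaks of the same libraries, and members span a narrower range of signal than IDR peaks.

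A small set of members ranked high in each replicate. Taking the top 8549 peaks of each list, 382 members lay inside such a peak in all 3, and 373 of these (97.6%) overlapped an IDR interval. The other 9 overlapped none. They lay near bdg, mbc, Vha13, 14-3-3zeta, CG1582, CG8929, Nedd4, CG17029 and disco, which are named here after their values were seen. Those near 14-3-3zeta, CG8929 and disco lay 199, 214 and 207 bp from an IDR summit, so their replicate ranks can belong to the neighbouring IDR peak. The promoter member of Vha13, a subunit of the vacuolar proton pump, had a pooled signal of 267.3 and signals of 246.2, 131.6 and 170.7 in replicates 1, 2 and 3. The promoter member of Nedd4, a ubiquitin ligase that acts on Notch among other proteins, had a pooled signal of only 148.1 and replicate signals of 209.3, 98.8 and 110.6. Its ranks in the replicates were 5607, 6043 and 6966, and its rank in the pooled list was 15721.

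**Figure D2:**
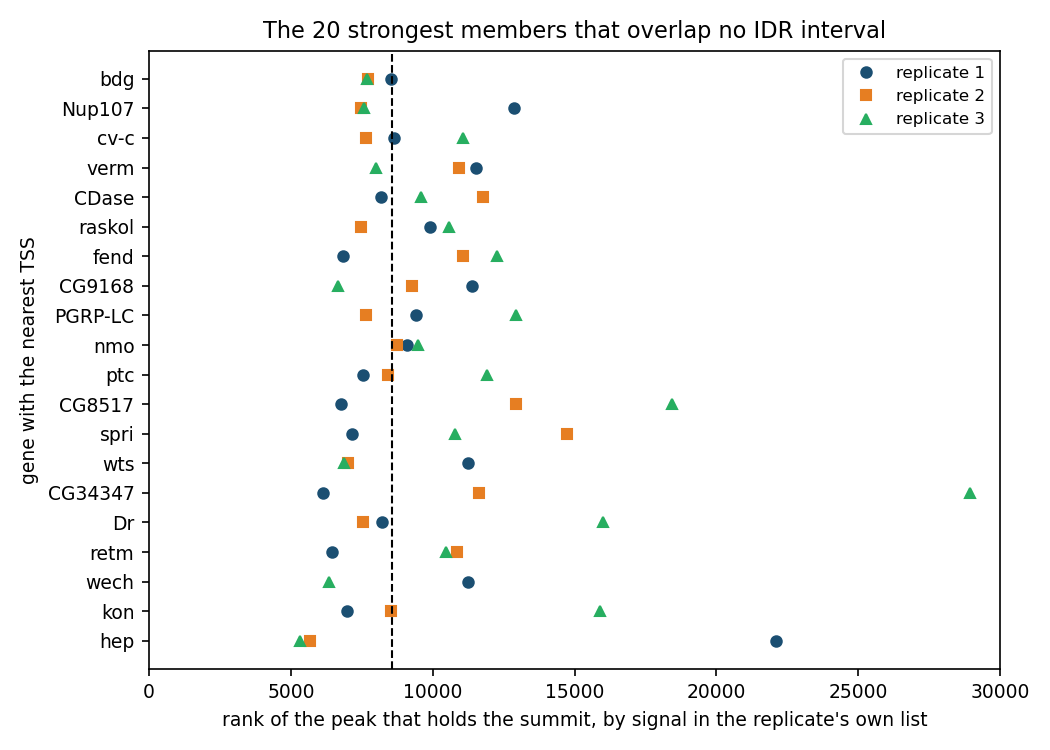
Rank by signal in each replicate's own list (horizontal axis, low ranks are strong) of the peak that holds the summit of each of the 20 strongest members that overlap no IDR interval (vertical axis, named by the nearest TSS); the dashed line marks rank 8549. The points scatter on both sides of the line, and wech has no point for replicate 2.

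Of the 20 strongest members that overlapped no IDR interval, 19 were present in all 3 replicates. They included promoters of Nup107, a nuclear pore subunit, and of PGRP-LC, a receptor for bacterial peptidoglycan. Others lay in introns of nmo (a kinase), of wts, the Warts kinase of the Hippo pathway, and of hep, a kinase of the JNK pathway. The replicates did not rank these alike. The hep member had signals of 53.3, 104.0 and 143.4 in replicates 1, 2 and 3, whereas the promoter member of CG34347 had 195.4, 55.8 and 22.4. The wts member, with 114.3, 87.3 and 112.4, was more even. Replicate signals are each on their own scale, with medians over present members of 78.6, 40.6 and 46.7, so the order of values within a peak needs to be read against those medians.

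The remaining members of that set lay near verm, a chitin-modifying protein of the tracheal lumen, CDase, raskol, fend, CG9168 (inside an intron of Ptp61F), ptc, the Hedgehog receptor, CG8517, spri, Dr, retm, wech and kon. The wech promoter member had signals of 114.1 in replicate 1 and 121.4 in replicate 3 and no peak in replicate 2.

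Of the 539 members with no replicate peak, the 10 strongest had pooled signals from 132.3 to 230.3. By the nearest TSS they were Krn, MFS15, zip, slp1, CG10912, cpo, Ttc30, drongo, Cyt-b5 and eas. The strongest lay in an intron of Krn, which encodes a ligand of the EGF receptor, 286 bp from an IDR summit. Of the 10, 7 lay between 199 and 331 bp from an IDR summit, while those near CG10912, cpo and Ttc30 were 37660, 9997 and 16702 bp away.

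Many members lay at a fixed small distance from an IDR summit. The smallest gap between 2 summits of the pooled list was 199 bp, and 2416 members (11.3%) lay 199 to 220 bp from an IDR summit, where 220 bp was chosen after the distances were seen. From 221 to 470 bp there were 303. Of the near members 2395 overlapped an IDR interval, which is 89.9% of the 2665 members (12.4%) that did so, and 262 members shared an IDR interval exactly. Near members had a median signal of 137.8 and lay at promoters in 40.4% of cases. By interval 65.0% of them were present in all 3 replicates, but with a replicate summit required within 100 bp the share was 28.3%. For a member that overlaps an IDR peak the replicate signals quoted are those of the strongest replicate summit in the interval, and these can belong to the IDR peak. An example is the promoter member of ato, which encodes the proneural factor Atonal. It lay 201 bp from an IDR summit, with a pooled signal of 284.6 and replicate signals of 695.3, 297.3 and 43.5.

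**Figure D3:**
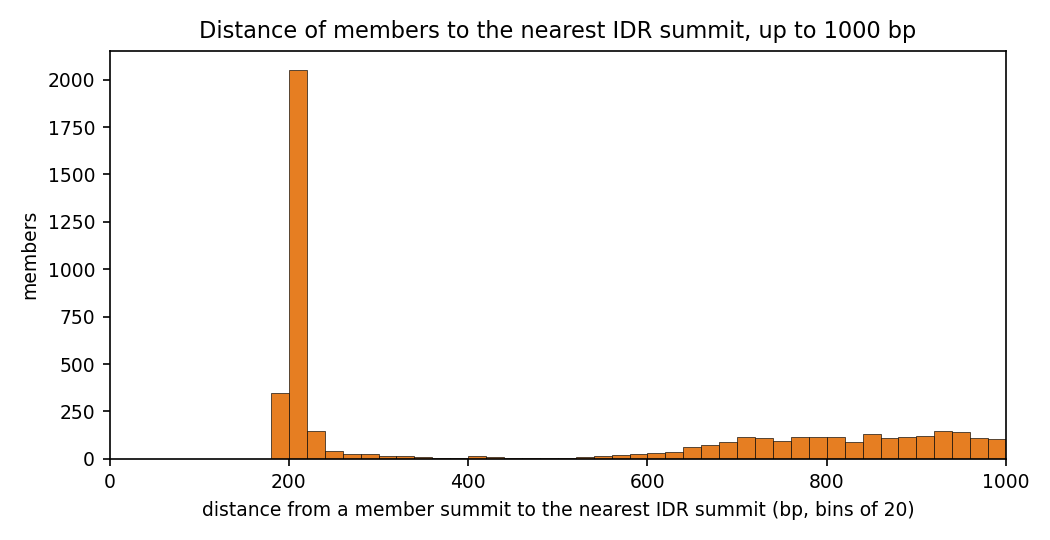
Number of members (vertical axis) by distance from the member summit to the nearest IDR summit in bp (horizontal axis, bins of 20 bp, up to 1000 bp). No member lies below 199 bp, and the 2416 members from 199 to 220 bp make the tall bars at and beside 200 bp.

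The other 18786 members (87.6%) overlapped no IDR interval. Members as a whole lay nearer to IDR summits than arm bases did. The median distance of all members to the nearest IDR summit was 2527 bp. Within 1000 bp of an IDR summit lay 22.5% of members and 10.8% of arm bases, and within 5000 bp 70.6% of members and 34.4% of arm bases. Beyond 5000 bp lay 6309 members (29.4%).

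Members lay at promoters less often than IDR peaks and in introns more often. A summit was called promoter within 500 bp of a TSS of a protein-coding gene, and otherwise by what it lay in. At promoters lay 4370 members (20.4%, 95% interval 19.8 to 20.9) against 41.7% of IDR peaks and 11.5% of arm bases (Fisher's exact test, two-sided, Benjamini-Hochberg over the 6 classes, exact adjusted p = 3.9e-298). Introns held 10410 members (48.5%) against 37.1% of IDR peaks and 39.3% of arm bases (exact adjusted p = 1.7e-72). Between genes lay 5902 (27.5%) against 19.7% of IDR peaks and 29.99% of arm bases (exact adjusted p = 2.8e-46). The exonic classes were small and also held a larger share of members. Coding sequence held 240 members (1.12%) against 0.199% of IDR peaks (exact adjusted p = 2.1e-18), 3′ untranslated regions 346 (1.61%) against 0.842% (exact adjusted p = 1.2e-07) and 5′ untranslated regions 183 (0.853%) against 0.456% (exact adjusted p = 1.8e-04). Coding sequence makes up 13.9% of arm bases, so both lists were poor in it. Peaks of 1 list are not replicates, and these tests describe the lists only.

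**Figure D4:**
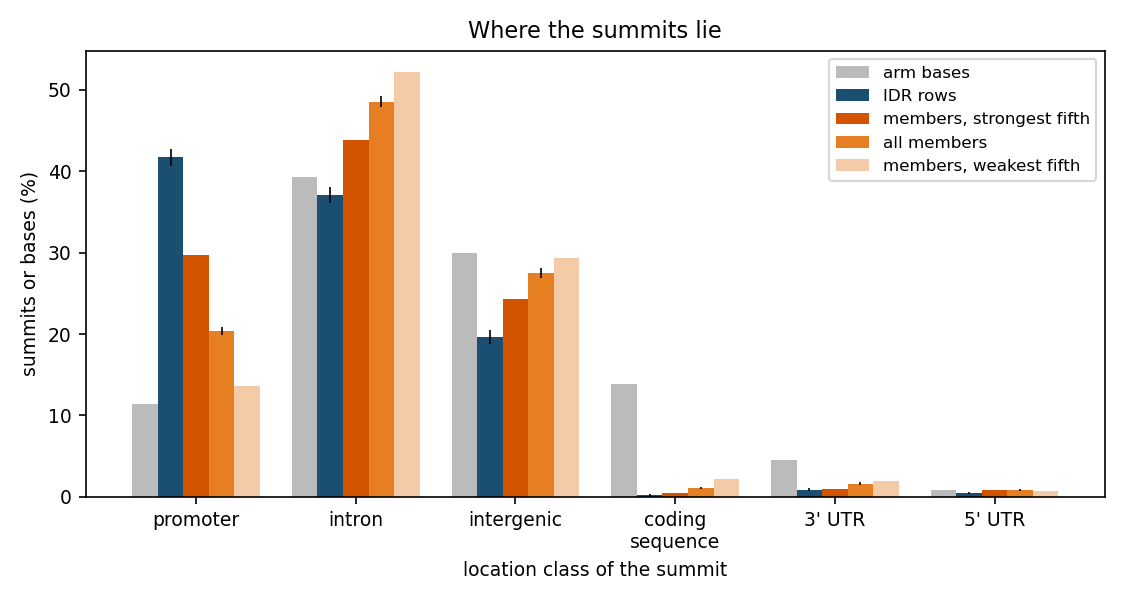
Share (percent, vertical axis) of arm bases, of IDR peaks (IDR rows), of all members and of the strongest and the weakest quintile of members in each of 6 location classes (horizontal axis); error bars on IDR peaks and on all members are 95% binomial intervals. Members stand between IDR peaks and arm bases at promoters, at 20.4%, and above both in introns, at 48.5%.

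The promoter share declined along the signal within the members too, from 29.7% in the strongest quintile through 24.8%, 18.3% and 15.5% to 13.6% in the weakest. It was 23.6% for members in all 3 replicates, 19.9% in 2, 14.0% in 1 and 8.35% in none. Members that overlapped an IDR interval were at promoters in 40.7% of cases and the rest in 17.5%. Promoter members fell more evenly on both sides of the TSS than promoter IDR peaks. Their median offset was -41 bp, negative for upstream, with 59.0% upstream, against -113 bp and 77.6% for IDR peaks. The share within 100 bp of the TSS was 38.9% for promoter members and 37.0% for promoter IDR peaks. Of the 4370 promoter members, 977 lay 199 to 220 bp from an IDR summit, and no 2 pooled summits lay closer than 199 bp. The positions of these 977 are thus tied to those of IDR peaks, and offsets without them were not computed.

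The only comparison over samples that the design allows splits each replicate's own list at the same rank, which uses the replicate's ranks and not the IDR selection. Below rank 8549 promoters held 22.6%, 22.8% and 19.4% of peaks in replicates 1, 2 and 3. Above it they held 43.6%, 43.6% and 41.6%. The weaker peaks were lower in all 3 replicates, and the groups of values did not overlap. The mean difference was -21.4 ± 0.768 percentage points (SD, n = 3; exact sign-flip permutation test, two-sided, p = 0.25, the smallest that 3 replicates allow). For introns the difference was 11.0 ± 0.844 points and for coding sequence 1.20 ± 0.179 points (SD, n = 3, exact sign-flip p = 0.25 each), positive in 3 of 3 replicates for both.

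The arms held members in much the same proportion as IDR peaks. There were 168.7 members per Mb on X, 170.0 on 2L, 147.1 on 2R, 172.4 on 3L and 153.0 on 3R, with 34.6 on the mostly heterochromatic arm 4. The X chromosome held 18.5% of members and 17.0% of IDR peaks (two-sided Fisher's exact test, p = 0.021 after adjustment over the 6 arms). The other 5 arms gave adjusted p-values from 0.48 to 0.78. Annotated transposable elements held 70 member summits (0.326%) and 0.292% of IDR summits, against 5.93% of arm bases, and tRNA genes held 17 member summits and 1 IDR summit.

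Ranked by the number of member summits in the gene body, which favours long genes, the first 10 held 52 or more. Most lay in kirre, which encodes an adhesion protein of muscle fusion, with 97 member and 33 IDR summits in its 394149 bp. The homeobox gene hth, a Hox cofactor, held 79 member and 15 IDR summits, jing held 66 and 14, and bun, of the TSC-22 family, held 62 and 15. The overlapping genes CG46467 and Glut4EF shared 61 member summits, fz2, a Wingless receptor, held 56, and Eip75B, Svil and sick held 52 each. Per 10 kb these genes ranged from 2.46 member summits in kirre to 6.81 in bun, beside 1.60 over the arms as a whole.

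A gene was counted as near a peak when at least 1 of its TSSs had a summit no farther than 1000 bp away. This favours genes with many TSSs, and the number of TSSs per gene was not taken into account. The annotation holds 13945 protein-coding genes, of which 32.1% were near an IDR summit (4475), 31.6% near a member (4406) and 52.8% near neither (7367). Only 2103 genes, 15.1% of the total, had a member and no IDR summit, here called member-only genes, since 2303 of the genes with an IDR summit (51.5%) also had a member. Of the 9470 genes with no IDR summit 22.2% had a member, and for each list below the share of its genes with no IDR summit that were member-only is given to be read beside that level. Many lists have fewer than 10 such genes, and no share was tested. At member-only genes the strongest member had a median signal of 167.0 and was present in all 3 replicates at 1185 genes (56.3%), in 2 at 665, in 1 at 218 and in none at 35.

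In the Enhancer of split complex the members were few beside the IDR peaks. Within 50 kb of E(spl)mbeta-HLH (chr3R:26005046-26006023), the gene of the tagged factor, lay 18 members and 44 IDR peaks, and 11 of the 18 overlapped an IDR interval. The extent of the tagged transgene is not given in the sources used here, so signal at this locus from the transgene copy and from the native gene cannot be told apart. Of the 7 bHLH genes of the complex, 6 had an IDR summit and the other 1 (100%), E(spl)m5-HLH, was member-only. Its member, 63 bp from the TSS, had a pooled signal of 131.8, with 86.0 in replicate 1 and 44.8 in replicate 2 and no peak in replicate 3. It did not overlap an IDR peak, the nearest IDR summit being 974 bp away. The member 1000 bp from the TSS of E(spl)m7-HLH had a pooled signal of 122.5 and replicate signals of 87.8, 39.4 and 29.2. The member of E(spl)malpha-BFM had one of the lowest signals, 64.6, 199 bp from an IDR summit, yet the replicate intervals that held it had signals of 3565, 1413 and 259.5, which can belong to the IDR peak.

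The Bearded family, small inhibitors of the Notch ligand machinery, stood in the complex and in another cluster on 3L. Of its 8 genes 5 had an IDR summit, 2 of the other 3 (66.7%), Ocho and Tom, were member-only and BobA had neither. The Ocho member had a pooled signal of 180.7, with 122.9 in replicate 1 and 31.5 in replicate 2, and the Tom member 111.1, with 89.6 and 37.7. Both were without a peak in replicate 3, as was E(spl)m5-HLH.

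Among the relatives of E(spl)mβ in the Hairy, Deadpan and Hey family, 3 of 5 genes had an IDR summit and the other 2 (100%), cwo and dpn, were member-only. The promoter member of cwo, a bHLH-Orange repressor of the circadian clock, had a pooled signal of 263.8 and replicate signals of 147.9, 60.4 and 49.6. That of dpn, a neuroblast repressor, was among the weak ones at 71.4, absent from replicate 1 and at 36.8 and 26.95 in replicates 2 and 3.

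Of the 24 Notch pathway genes 17 had an IDR summit and 2 of the other 7 (28.6%), Ser and sno, were member-only. Ser encodes a Notch ligand beside Delta. Its member had a pooled signal of 130.5, with 132.6 in replicate 1, 38.1 in replicate 2 and no peak in replicate 3. The promoter member of sno, a nuclear cofactor of Notch signalling, was stronger at 268.3 (102.2 and 73.7 in replicates 1 and 2, none in replicate 3). Both were therefore absent from replicate 3. The receptor N, the corepressor gro, the glycosyltransferase fng, kuz, neur, mib1, numb, Su(dx), dx and rumi had a member beside their IDR summit. Delta, mam, O-fut1, aph-1, spdo, l(2)gd1 and Nak had an IDR summit and no member within 1000 bp of a TSS. Over all genes with an IDR summit 51.5% had a member too. The fng member (227.4) was in replicate 1 only. The genes with neither were Su(H), H, Psn, Nct and pen-2, which encode the DNA-binding factor of the pathway, its antagonist Hairless and subunits of γ-secretase.

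Of 15 proneural and sense organ genes 7 had an IDR summit and 6 of the other 8 (75%) were member-only. The promoter member of sens, a zinc-finger factor of sense organ precursors, had a pooled signal of 268.3 and replicate signals of 152.2, 62.2 and 69.9. The proneural gene l(1)sc had one of 224.8 (117.2, 57.5 and 49.2) and ttk, a repressor of neuronal fate, of 244.4 (273.6, 105.3 and 113.7). All 3 were thus seen in each replicate, while amos lacked replicate 3 and sca was seen in replicate 1 only.

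Of 21 neuroblast genes 12 had an IDR summit and 8 of the other 9 (88.9%) were member-only. The members of nub, a POU factor, at 285.5 (115.5, 74.9 and 102.6) and D, a Sox factor, at 247.1 (131.0, 96.0 and 39.7) were present in all replicates. That of hb, the first factor of the neuroblast temporal series, was at 257.4, with 117.2 and 69.7 in replicates 1 and 2 and none in replicate 3. Of the neuronal differentiation genes 3 of 14 had an IDR summit, Fas2 (218.7) and Appl (181.6) were member-only and 9 had neither. Member-only genes were thus 18.2% of the 11 without an IDR summit, near the level over all genes. The 9 with neither included the synaptic genes Syt1, nSyb, brp and cac and the transmitter genes ChAT, VGlut and Gad1. Among 10 glial genes 7 had an IDR summit, and gcm (204.9), the glial fate switch, and wrapper (182.1) were member-only, 2 of the other 3 (66.7%).

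Of 20 mesoderm and muscle genes 6 had an IDR summit and 9 of the other 14 (64.3%) were member-only. The promoter member of Mef2, the myogenic MADS-box factor, had a pooled signal of 274.9 and replicate signals of 174.0, 57.9 and 57.4. That of rst, an adhesion protein of myoblast fusion, was at 245.8 (116.2, 67.9 and 58.7), and that of lmd, a zinc-finger factor of fusion-competent myoblasts, at 194.2 (59.3, 45.0 and 87.5). The mesodermal factor twi was at 144.1 with no peak in replicate 3.

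Of 18 EGF and FGF genes 12 had an IDR summit and 4 of the other 6 (66.7%) were member-only: pyr, an FGF ligand (266.8; replicates 116.6, 73.3 and 77.2), the receptor Egfr (230.6; 165.6, 37.8 and 58.6), S (142.7) and ths (137.8). Of 21 Dpp, Wingless and JAK/STAT genes 13 had an IDR summit and 6 of the other 8 (75%) were member-only. The ligand gene dpp led with 279.8 (181.5, 59.6 and 48.4), followed by the Wingless receptor gene fz (263.2) and by sog (228.5), an antagonist of Dpp. Of 20 segmentation genes 10 had an IDR summit and 4 of the other 10 (40%) were member-only, with ci (232.3), slp1 (222.4) and run (195.9) the strongest. Of 10 Hox genes and cofactors 3 had an IDR summit and 3 of the other 7 (42.9%) were member-only, Ubx (267.4), abd-A (228.7) and lab (205.5). The Ubx member was at 208.8 and 62.5 in replicates 1 and 2 and absent from replicate 3. Among 12 tracheal genes 7 had an IDR summit and 4 of the other 5 (80.0%) were member-only, led by salm (229.9), serp (215.5) and knrl (198.9).

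Of 93 cytoplasmic ribosomal protein genes 78 had an IDR summit and 4 of the other 15 (26.7%) were member-only, RpS2 (250.2), RpS27A (174.4), RpS15Ab (167.7) and RpS5b (85.2). Among 16 cell cycle genes 10 had an IDR summit, Rbf (97.3) was the only member-only gene of the other 6 (16.7%), and CycA, CycB, CycD, Cdk2 and polo had neither. Of 13 genes of GAGA factor and insulator proteins 12 had an IDR summit and the other was not member-only. Of 180 olfactory, gustatory and ionotropic receptor genes, which are expressed mainly in sense organs, 5 had an IDR summit, 7 were member-only (4% of the other 175) and 168 had neither. The strongest were Gr97a (239.8), Gr63a (173.2) and Ir67c (146.9), the last in replicate 3 only. Of 121 cuticle protein genes 9 had an IDR summit and 25 of the other 112 (22.3%) were member-only, a share close to the level over all genes, led by Cpr65Av (271.7), Cpr67B (170.7) and Cpr78Cc (169.6). Of 16 Jonah protease genes 1 had an IDR summit and 2 of the other 15 (13.3%) were member-only, Jon65Aiv (101.6) and Jon65Aiii (78.6). Of 12 germ-line genes 4 had an IDR summit and 3 of the other 8 (37.5%) were member-only, bam (172.5), ovo (74.3) and osk (73.4), and ovo and osk were each present in 1 replicate. Of 12 gut genes 5 had an IDR summit and 4 of the other 7 (57.1%) were member-only, nub, lab and GATAe (133.3) the strongest. Of 13 haemocyte and fat body genes 2 had an IDR summit and only gcm of the other 11 (9.09%) was member-only, so that nub, lab and gcm count in more than 1 list.

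**Figure D5:**
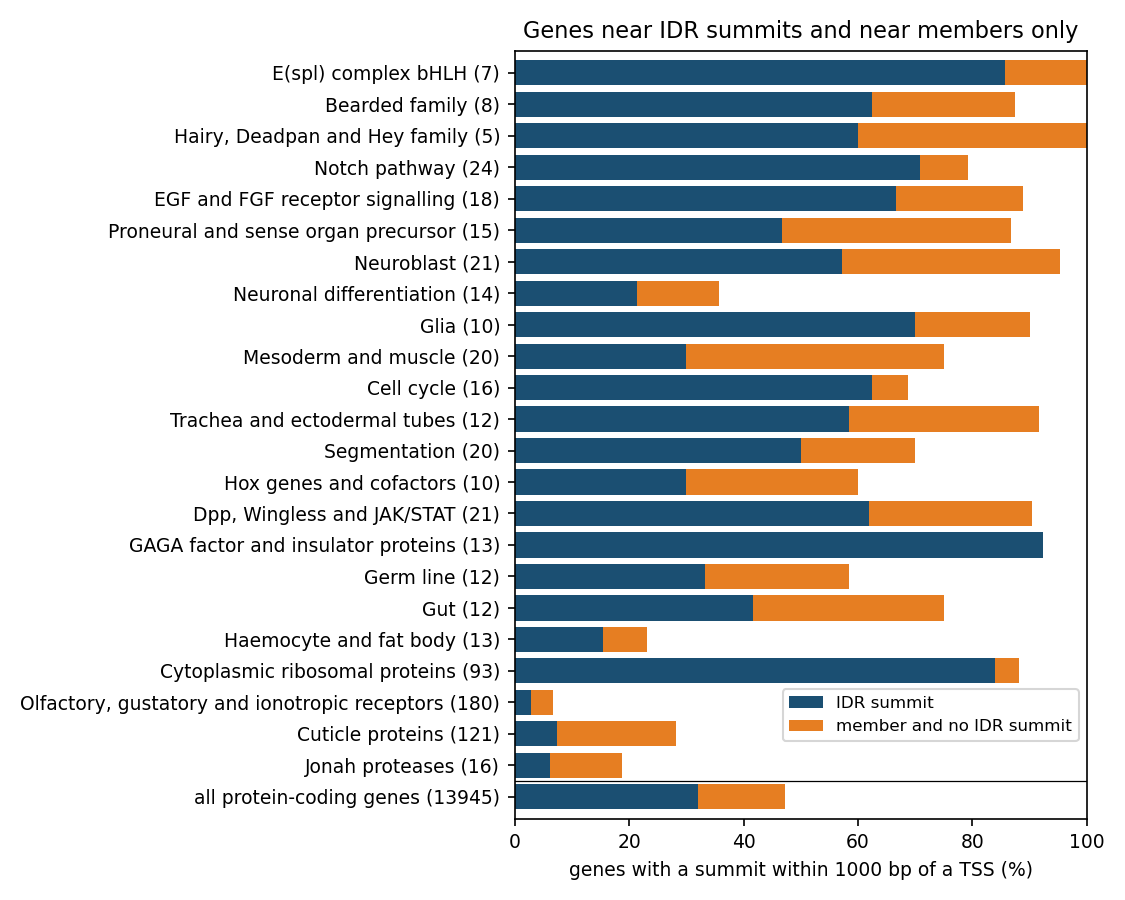
Share of genes (percent, horizontal axis) with an IDR summit within 1000 bp of a TSS and, stacked on it, with a member and no IDR summit, for each gene list (number of genes in brackets) and for all protein-coding genes. Member-only genes make up 15.1% of all genes.

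The sequence around the summits differed between the lists. In windows of 201 bp, the median GC content was 41.3% in members (quartiles 34.8% and 47.3%), 34.8% in IDR peaks and 41.8% in windows 1000 bp from member summits and away from all pooled peaks, here called flanks. Repeat-masked bases made up 18.0% of member windows, 22.4% of IDR windows and 16.1% of flanks. The members were thus closer to the flanks than to the IDR peaks in both measures, but no flanks were taken around the IDR peaks.

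Motifs were searched on both strands of the same windows, 12 in all, and compared with Fisher's exact test, two-sided, with Benjamini-Hochberg adjustment over the 12. CACGTG was in 3.65% of members (784), 4.07% of IDR peaks, 2.15% of flanks and 2.80% of windows at TSSs (members against IDR, exact adjusted p = 0.11). GGCACGTG, every match of which is also a CACGTG match, was in 0.988% of members (212), 1.30% of IDR peaks, 0.294% of flanks and 0.280% of TSS windows (exact adjusted p = 0.033). CACGCG was in 5.97%, 7.23%, 3.48% and 6.41% (exact adjusted p = 1.3e-04). GGCACGTG and CACGCG were thus less frequent in members than in IDR peaks at a threshold of 0.05, CACGTG did not pass it, and the shares of all 3 in members were above those in flanks. The GGCACGTG difference no longer passed when any replicate was left out, with only peaks present in both others kept (odds ratios 0.814 to 0.866). This kept 12256 to 13318 members, and the pooled and IDR lists still rest on all 3 replicates. Neither passed among the 10725 strongest members (GGCACGTG 0.925, CACGCG 0.897) or among promoter windows alone (0.641 and 0.960). Among windows outside promoters both passed (0.692 and 0.816). Over all windows the odds ratios were 0.759 and 0.815.

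The promoter motifs differed more. TATCGATA was in 1.25% of members, 2.95% of IDR peaks, 0.353% of flanks and 6.45% of TSS windows (exact adjusted p = 5.4e-21), and GGTCACAC in 1.12%, 1.98%, 0.280% and 5.68% (exact adjusted p = 1.2e-07). The share of TATCGATA moved with location. Among promoter windows it was 4.44% in members and 6.39% in IDR peaks, an odds ratio of 0.681 that passed the threshold (exact adjusted p = 5.2e-04). Outside promoters it was 0.439% and 0.482%, an odds ratio of 0.911 that did not pass. For GGTCACAC the odds ratio was 0.929 among promoter windows and 1.04 outside them, and neither passed. Members held 3 E-box-like motifs more often than IDR peaks: CAGGTG in 6.19% against 4.61% (flanks 7.68%, TSS windows 6.67%, exact adjusted p = 2.0e-07), CACNAG in 21.2% against 19.0% (flanks 21.2%, TSS windows 23.6%, exact adjusted p = 5.7e-05) and CAGCTG in 9.04% against 8.06% (flanks 8.51%, TSS windows 13.4%, exact adjusted p = 0.011). With windows of 200 bp to each side the direction for CAGCTG turned, to an odds ratio of 0.880, and CACNAG, at 1.00, no longer passed. The repeat CACACACA was in 6.79% of members and 4.13% of IDR peaks, with 3.94% of flanks and 3.999% of TSS windows (exact adjusted p = 1.0e-18).

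For GAGAGAG the shares were 4.48% of members and 4.49% of IDR peaks, with 2.32% of flanks and 4.69% of TSS windows (exact adjusted p = 0.98). Among promoter windows alone the odds ratio was 1.38, and with 200 bp to each side it was 0.721, both past the threshold and in opposite directions. The Su(H) site GTGGGAA was in 2.56% against 2.20% (flanks 2.82%, TSS windows 2.25%, exact adjusted p = 0.092), and the Zelda site CAGGTAG in 1.13% against 0.994% (flanks 1.09%, TSS windows 1.08%, exact adjusted p = 0.35). A match is a run of letters in a window and says nothing of whether a factor binds there.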

How the data were processed

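Peak lists of 3 ChIP-seq replicates, a pooled list and an IDR list were read as deposited, on dm6. Each replicate alone and the pooled alignments were used for peak calling with 1 common control alignment, per the deposited provenance records. Neither aligner nor peak caller, nor any version, is given in the labels or headers. The authors deposited a signal and a −log10 q-value per peak. Summits were the start plus the deposited summit offset, and 8 member summits that lay at the end of the peak or beyond it were kept. Peaks off the 6 arms were left out.

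Members were matched to the IDR list by chromosome, start, end and summit. Location came from the Ensembl release 115 annotation and sequence from RefSeq's Release 6 assembly. Flank windows lay 1000 bp from member summits and more than 300 bp from every pooled summit. Intervals are exact binomial at 95%. Lists of peaks were compared with Fisher's exact test and replicates with an exact sign-flip permutation test, in Python 3.11.15 with numpy 2.4.6, pandas 2.3.3 and scipy 1.17.1; the code was tested on simulated data. The replicates are separate biosamples per the labels.

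The members, gene lists and motifs were chosen with earlier results of these data known. Genes named come from the E(spl), Bearded, Hairy and Hey and Notch lists, though not every gene of these is named. In every other list they are the 3 with the strongest member among member-only genes. Named too are the genes nearest to the 20 strongest members overlapping no IDR interval and to the 10 strongest in no replicate. The 10 genes with most member summits and the 5 peaks on each side of the threshold complete the set. Further genes, such as those high in every replicate, were chosen after their values were seen. Alternatives covered the set of members, how presence is defined, promoter and gene distances, window size and leaving out each replicate.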

Additional observations from a re-analysis of the deposited data

Results flagged for a closer look

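The list of replicate 1 held 5 peaks on the mitochondrial genome, where the lists of replicates 2 and 3 held 0. These peaks lie outside the arms and were not used in any comparison, and their origin was not tested.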

How the results depend on the processing

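Of 171 alternative values, 139 were counted as unchanged. A tested value so counted kept its side of the threshold, but its direction could turn where it passed in neither setting. GAGAGAG, with an odds ratio of 0.997 in the main comparison, was so counted at 1.19 with 50 bp to each side. GTGGGAA, at 1.17 in the main comparison, was so counted at 0.804 among promoter windows. Without a test, sizes could also differ: 1413 member-only genes without replicate 2 were counted as unchanged beside 2103. Every location share kept its call. Leaving out each replicate, with presence in both others required, gave 22.4 to 23.6% at promoters, 1413 to 1587 member-only genes and a promoter difference within replicates of -21.6 to -20.9 points.

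Presence in all 3 lists was 72.9% among the 10725 strongest members, 45.5% without overlap with an IDR interval, 48.7% over merged regions, 27.4% with a summit within 100 bp, 47.0% with reciprocal overlap of 50%, 13.3% in the strongest 15000 rows of each list, and 57.1 to 62.1% in both others when 1 replicate was left out. For IDR peaks it was 87.4% with a summit within 100 bp, 67.3% with reciprocal overlap and 89.7% in the strongest 15000 rows.

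Odds ratios of motifs, members against IDR peaks, moved as follows, and the cause was not tested. Among the 10725 strongest members GGCACGTG (0.925), CACGCG (0.897) and GGTCACAC (0.803) were no longer past the threshold, and without overlap GGCACGTG (0.818) and CAGCTG (1.11) were not. GGCACGTG was not when any replicate was left out (0.814 to 0.866). With 50 bp to each side GTGGGAA passed (1.43). With 200 bp CACGTG (0.890) and GAGAGAG (0.721) passed, GGCACGTG (0.860) and CACNAG (1.00) did not, and CAGCTG turned (0.880). The split by promoter was chosen after the data were seen. Among promoter windows CACGTG (0.753) passed, GGCACGTG (0.641), CACGCG (0.960), CAGCTG (1.15) and GGTCACAC (0.929) did not, and GAGAGAG turned (1.38). Outside promoters TATCGATA (0.911) did not pass, GGTCACAC turned (1.04) and GTGGGAA passed (1.45).

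No paired analysis was possible because the 3 replicates form 1 group, so that no groups share replicate numbers; the promoter difference within replicates compares peaks of the same list. With depth unknown, an absent replicate peak is a peak outside that replicate's 30000 rows.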
